A study of Mus musculus with 2 samples.

Results

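The genes examined were 10 enzymes of bile acid synthesis and conjugation, fixed by name and matched by symbol among the 43280 gene symbols of the read counts. All 10 were found, and each had at least 749 reads over both libraries. They were compared between 1 library of small hepatocytes (SHs), which the labels call hepatocyte progenitors, and 1 library of mature hepatocytes (MHs). Both cell types came from the same C57BL6 mice, 20 weeks old by the labels, whereas the methods give a younger age range for the mice of the study. The methods name 3 healthy mice and no treatment, without saying how they enter each library. MHs, from the first low-speed pellet, were freed of dead cells on Percoll, and no sort is given for them. SHs, spun from the supernatant at a higher force and freed of dead cells the same way, were then sorted for ICAM-1+ cells that lacked CD31, CD45 and EpCAM.

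Bile acids are made from cholesterol in hepatocytes. In the classic pathway, Cyp7a1 hydroxylates the sterol ring as the rate-limiting step. In the alternative pathway, Cyp27a1 oxidizes the side chain first, and the resulting oxysterols are hydroxylated on the ring by Cyp7b1 or, for another oxysterol, by Cyp39a1. Both routes then share enzymes that modify the ring, shorten the side chain in peroxisomes, and join the product to an amino acid such as taurine. Bile acids repress the pathway through the receptor Nr1h4 (FXR) and its target Nr0b2 (SHP), and Cyp7a1 is known to be expressed mainly by hepatocytes around the central vein.

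Poly(A) RNA was sequenced, and the library of MHs held 16979136 counted reads against 42356444 for SHs. Counts were scaled to 1000000 counted reads of the same library (RPM). With 1 library per cell type there was no replicate check and no test between cell types. Each log2 ratio of SHs over MHs is given with a 95% exact interval that covers counting error only, and reads are not independent molecules. In bulk RNA, fewer cells of a type and less RNA per cell cannot be told apart. All 6 hepatocyte markers were detected in both libraries, with ratios between -0.19 and 0.13, and albumin was the most abundant of them at 55706 RPM for MHs against 60855 for SHs.

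Markers of other cell types were mostly lower in SHs. The endothelial and cholangiocyte lists hold Pecam1 (CD31) and Epcam, genes of surface proteins that SHs were sorted to lack. Their directions were thus partly known beforehand. The summed level of 10 endothelial markers was 101.6 RPM in MHs against 4.82 in SHs, with all 10 lower in SHs and Lyve1 at 0 reads there. For 9 macrophage markers the sums were 22.0 and 0.661 RPM, with Marco at 0 in SHs, and for 10 stellate cell markers they were 21.4 and 2.29 RPM, with Lum at 0 in SHs. The 8 cholangiocyte markers summed to 14.1 RPM in MHs against 14.2 in SHs, with Cftr and Sctr at 0 in SHs. No marker of these lists was at 0 in MHs, but some lay near the floor there. The lowest in MHs was at 0.0589 RPM among cholangiocyte and among stellate markers. Among macrophage markers it was at 0.177 RPM, which is the level of 3 reads in MHs. Of the markers with at least 10 reads, all 10 endothelial, all 8 macrophage and all 8 stellate markers had intervals under 0. Of the 2 cholangiocyte markers of that depth, 1 interval lay under 0 and 1 above. For comparison, 15.5% of all genes with at least 10 reads had an interval under 0 and 16.8% one above 0. The part of other cell types in the ratios of the enzymes was not tested.

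The bile acid enzymes did not share a direction. The interval lay wholly under 0 for 6 genes (Cyp7a1, Cyp8b1, Cyp27a1, Cyp7b1, Hsd3b7 and Slc27a5) and wholly above 0 for 3 (Cyp39a1, Akr1d1 and Amacr), and it included 0 for Baat. Among the 15521 genes with at least 10 reads, 15.5% had an interval under 0 and 16.8% one above 0. Intervals narrow with depth, and 8 of the 10 enzymes had at least 5000 reads. Of these 8, the interval lay under 0 for 5 and above 0 for 2, where the shares among all 1299 genes of that depth were 35.8% and 42.9%. Median log2 ratios were -0.18 for the 10 enzymes and 0.02 for all genes with at least 10 reads.

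Most differences were small in size. Only Cyp7a1 was at least 1.5-fold lower in SHs with its interval on that side, and only Cyp39a1 was at least 1.5-fold higher. The background of these calls was 6.20% lower and 3.50% higher among genes with at least 10 reads. Cyp27a1, 1.49-fold lower, lay just short of the threshold. None of the 8 enzymes with at least 5000 reads passed it, and among all genes of that depth 3.23% passed as lower and 1.23% as higher.

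**Figure D1:**
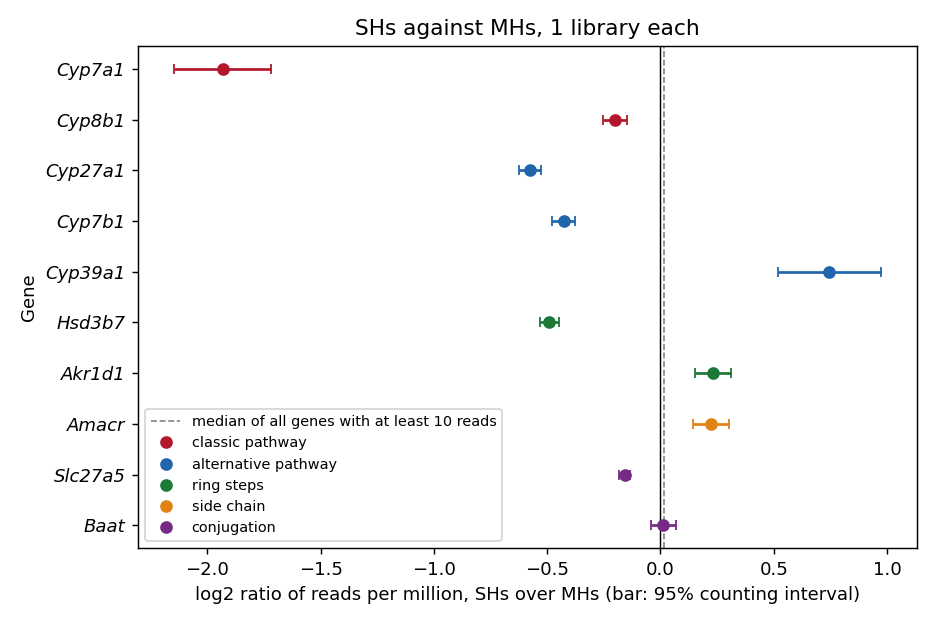
log2 ratio of RPM in SHs over MHs (x axis) for the 10 bile acid enzymes (y axis), colored by role, with bars for the 95% counting interval. The dashed line is the median of all genes with at least 10 reads, 0.02, and the enzymes spread from -1.93 for Cyp7a1 to 0.74 for Cyp39a1.

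The enzyme that starts the classic pathway, Cyp7a1 (chromosome 4, 6265612 to 6275633 of mm10, minus strand), had the lowest ratio of the 10. MHs gave 453 of its reads and SHs, although sequenced deeper, 296. Its level was 26.7 RPM in MHs against 6.99 in SHs, 3.82-fold lower in SHs (95% interval 3.29 to 4.44). Its log2 ratio was -1.93, and 18 of the 9608 genes with 200 reads or more, Cyp7a1 included, lay as low or lower. Cyp7a1 had the fewest reads of the set, and its interval was wider than those of the other enzymes except Cyp39a1.

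Markers of lobular position also differed between the libraries. All 10 markers of ZONE3, the hepatocytes around the central vein, were lower in SHs with intervals under 0, between -4.23 and -1.08 and with a median of -1.83. The ratio of Cyp7a1, -1.93, lay inside this range, and those of the other 9 enzymes lay above it. The summed level of the ZONE3 markers was 3225 RPM in MHs against 903.5 in SHs. All 10 markers of ZONE1, the hepatocytes around the portal vein, were higher in SHs with intervals above 0 and ratios from 0.06 to 1.29, and their summed level was 10294 RPM in MHs against 13333 in SHs. Both marker lists hold genes that the paper had already reported as different between SHs and MHs, so their directions were partly known beforehand. Among all genes with at least 10 reads, 15.5% had an interval under 0 and 16.8% one above 0. The part of lobular position in the ratios of the bile acid enzymes was not tested.

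Cyp8b1 acts later in the classic pathway and adds the hydroxyl group that distinguishes cholic acid from the other main product. This gene has a single exon (chromosome 9, 121914356 to 121916305, minus strand). It had 4135 reads in MHs against 8977 in SHs, which were 243.5 and 211.9 RPM. SHs thus had a 1.15-fold lower level (1.11 to 1.19), far from the difference of Cyp7a1. The ratio of Cyp8b1 to Cyp7a1 within a library needs no scaling between libraries. Per kilobase of exon, Cyp8b1 reads were 19.5 times those of Cyp7a1 in MHs and 64.9 times in SHs, so that this balance was 3.32-fold higher in SHs (2.85 to 3.88).

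The RefSeq table of promoters (GRCm38.p6, the patched release of mm10) held 4 of the 10 genes: Cyp8b1, Cyp27a1, Hsd3b7 and Akr1d1. The 250 bases before their RefSeq starts were searched on both strands for CAAAGTCCA, a site type of HNF4 (Hnf4a), for TCAAGGNCA, a site type of the receptor LRH-1 (Nr5a2), and, added after the sequences had been seen, for TATAAA. Of all 32851 promoter windows, 0.384% held the HNF4 type, 1.39% the LRH-1 type and 12.4% TATAAA. Only the window of Cyp8b1 held a match among the 4 genes, with CAAAGTCCA starting 67 bases and TATAAA starting 31 bases before the gene start, both on the gene's strand and without overlap. It is shown because it is the only window with matches, at chr9:121916306-121916555, minus strand, with the matches in capitals, and a match describes the letters and not a bound site.
Cyp8b1: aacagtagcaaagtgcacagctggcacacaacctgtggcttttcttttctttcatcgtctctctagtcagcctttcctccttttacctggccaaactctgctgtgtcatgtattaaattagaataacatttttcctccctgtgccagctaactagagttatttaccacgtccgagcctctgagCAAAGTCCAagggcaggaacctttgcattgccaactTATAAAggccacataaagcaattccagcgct

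In the alternative pathway, Cyp27a1 and Cyp7b1 were lower in SHs and Cyp39a1 was higher. Cyp27a1, the mitochondrial sterol hydroxylase (chromosome 1, 74713574 to 74737892, plus strand), had 5661 reads in MHs against 9480 in SHs. Its level went from 333.4 RPM in MHs to 223.8 in SHs, giving a log2 ratio of -0.58 (95% interval -0.62 to -0.53). Among genes with at least 200 reads, 2.20% had a ratio as low or lower.

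Cyp7b1, the microsomal enzyme for the oxysterols made by Cyp27a1 (chromosome 3, 18071950 to 18243338, minus strand), had 4749 reads in MHs against 8809 in SHs. The levels were 279.7 RPM in MHs against 208.0 in SHs, 1.34-fold lower in SHs (1.30 to 1.39). A small nuclear RNA gene, Gm23686, lies within Cyp7b1 on the same strand without sharing exon bases. It had 205 reads of its own in MHs against 926 in SHs. Genes on the same strand without shared exon bases also overlap Cyp39a1 (Gm25783, 0 reads in both libraries) and Akr1d1 (Gm7463, not counted). The difference was smaller for Cyp7b1 than for Cyp27a1, although the levels of both enzymes were close. The ratio of Cyp7b1 to Cyp27a1 within a library was 1.11-fold higher in SHs (1.06 to 1.16).

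Cyp39a1 hydroxylates an oxysterol that is formed largely in the brain (chromosome 17, 43667425 to 43751431, plus strand). It had 201 reads in MHs against 840 in SHs. Its level of 11.8 RPM in MHs against 19.8 in SHs was 1.67-fold higher in SHs (1.43 to 1.96), against the direction of the other alternative-pathway genes. Of the 9608 genes with at least 200 reads, 84 had a ratio as high or higher. The balance of Cyp39a1 to Cyp7a1 differed most among the 7 pairs of enzymes compared, and was 6.39-fold higher in SHs (5.14 to 7.96). Relative to Cyp7a1, Cyp27a1 was 2.56-fold higher in SHs (2.20 to 2.99) and Cyp7b1 was 2.84-fold higher (2.44 to 3.31).

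The ring steps that follow lay on opposite sides of 0. Hsd3b7, the dehydrogenase that acts on the hydroxylated ring in both pathways (chromosome 7, 127800604 to 127803802, plus strand), had 7719 reads in MHs against 13708 in SHs. These were 454.6 and 323.6 RPM, for a log2 ratio of -0.49 (-0.53 to -0.45). Its value is uncertain, because 83.1% of the 50-base stretches of its annotated transcripts also occur in other annotated genes, namely Gm49388 on the same strand and 9430064I24Rik on the opposite strand. Neither of these genes was among the counted symbols, and which strand the counting used is not given in the sources used here. For the other 9 enzymes, no 50-base stretch was shared with another gene.

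Akr1d1, the reductase that follows Hsd3b7 (chromosome 6, 37530173 to 37568815, plus strand), had 1693 reads in MHs against 4954 in SHs. It was 1.17-fold higher in SHs (1.11 to 1.24), at 99.7 RPM in MHs against 117.0 in SHs. Within a library, Akr1d1 relative to Hsd3b7 was 1.65-fold higher in SHs (1.55 to 1.75). This balance and the opposite signs share the uncertainty of the Hsd3b7 value, which the interval does not cover. The 250 bases before each of these genes are shown because they act in sequence and had opposite ratios, with Hsd3b7 at chr7:127800359-127800608 and Akr1d1 at chr6:37529923-37530172, both on the plus strand. Neither holds any of the motifs, so no capitals appear, and the share of G and C was 58.0% for Hsd3b7 and 45.2% for Akr1d1.
Hsd3b7: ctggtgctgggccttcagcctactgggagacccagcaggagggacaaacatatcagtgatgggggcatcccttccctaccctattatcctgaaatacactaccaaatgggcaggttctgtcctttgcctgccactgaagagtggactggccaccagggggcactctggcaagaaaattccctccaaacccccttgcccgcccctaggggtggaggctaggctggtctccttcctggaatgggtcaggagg
Akr1d1: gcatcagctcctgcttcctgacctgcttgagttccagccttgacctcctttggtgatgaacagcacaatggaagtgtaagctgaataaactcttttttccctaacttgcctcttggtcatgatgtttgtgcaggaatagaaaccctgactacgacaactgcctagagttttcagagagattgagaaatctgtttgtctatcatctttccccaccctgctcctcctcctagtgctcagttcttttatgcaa

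The side chain enzyme Amacr, a racemase that prepares the side chain for peroxisomal shortening (chromosome 15, 10981756 to 10996626, plus strand), had 1699 reads in MHs against 4948 in SHs. These were 100.1 RPM in MHs against 116.8 in SHs, giving a log2 ratio of 0.22 (0.14 to 0.30). Amacr and Akr1d1 could not be told apart by ratio, since their intervals overlapped almost entirely.

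The conjugation enzymes had the ratios nearest to 0, although the interval of Slc27a5 overlapped that of Cyp8b1. Slc27a5, which attaches coenzyme A to bile acids before conjugation (chromosome 7, 12988346 to 12998192, minus strand), had 20168 reads in MHs against 45111 in SHs. Its level was 1188 RPM in MHs against 1065 in SHs, 1.12-fold lower in SHs (1.10 to 1.13). Baat, which transfers the activated bile acid to an amino acid such as taurine (chromosome 4, 49489422 to 49506557, minus strand), had 3488 reads in MHs against 8779 in SHs. With 205.4 RPM in MHs against 207.3 in SHs, its log2 ratio was 0.01 and its interval of -0.04 to 0.07 included 0. Baat relative to Slc27a5 was 1.13-fold higher in SHs (1.08 to 1.17).

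Of the 45 pairs of enzymes, 41 had ratios whose counting intervals did not overlap. The 4 pairs that overlapped were Cyp8b1 with Slc27a5, Cyp27a1 with Hsd3b7, Cyp7b1 with Hsd3b7, and Akr1d1 with Amacr. The share of pairs with separate intervals among all genes was not computed, so it is not known whether 41 of 45 is unusual. Counting intervals are narrow for genes with many reads. At 5000 reads or more, 35.8% of all genes had an interval under 0 and 42.9% one above 0. Whether the differences between enzymes exceed the variation between preparations was not tested.

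**Figure D2:**
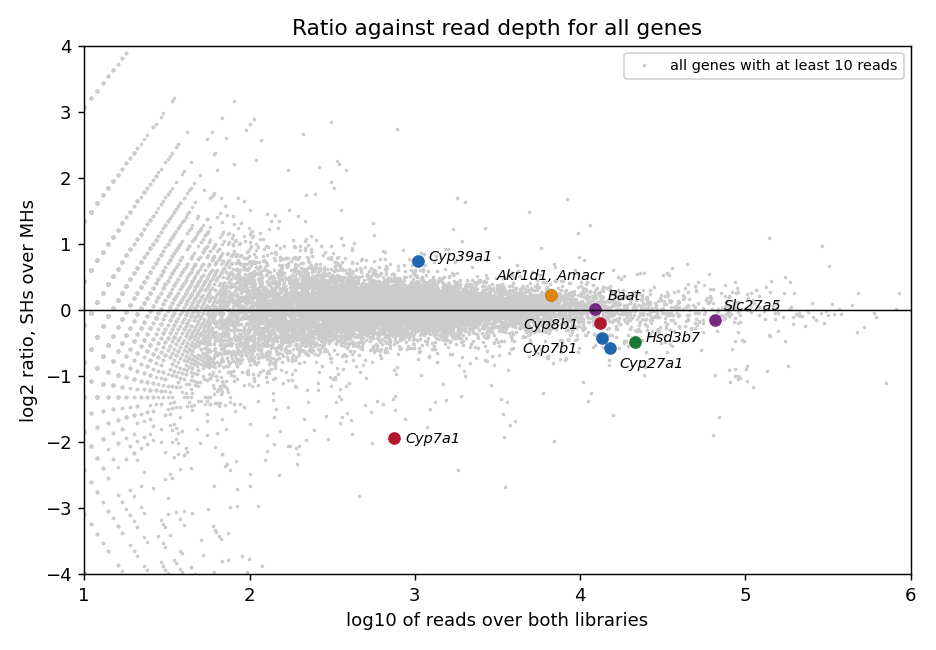
log2 ratio of SHs over MHs (y axis) against the log10 of reads over both libraries (x axis), with the bile acid enzymes in color and all genes with at least 10 reads in gray. Colors stand for the same roles as in the plot of ratios, Amacr covers Akr1d1, and 175 genes lie outside the plotted range. Cyp7a1 and Cyp39a1, with 749 and 1041 reads, lie at the edges of the gray cloud, and the other enzymes lie nearer to 0.

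Levels of different genes were compared per kilobase of merged exons on the RPM scale (RPKM). Slc27a5 had the highest level in both libraries, 487 RPKM in MHs against 437 in SHs. Hsd3b7 came next, at 164 RPKM in MHs against 117 in SHs, although its value is uncertain because of shared sequence. The next 4 genes lay close together. In MHs they were Cyp27a1 at 153, Cyp7b1 at 129, Cyp8b1 at 124.9 and Baat at 106 RPKM, of which Cyp7b1 and Cyp8b1 did not differ beyond their counting intervals. The order changed in SHs to Cyp8b1 at 109, Baat at 107, Cyp27a1 at 103 and Cyp7b1 at 96.0 RPKM, and the interval of Baat overlapped those of both of its neighbors. Amacr was at 38.4 RPKM in MHs against 44.8 in SHs, and Akr1d1 at 34.5 and 40.4.

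The hydroxylases Cyp7a1 and Cyp39a1 were far lower than the other enzymes and exchanged places. Cyp7a1 had 6.39 RPKM in MHs against 1.67 in SHs. Cyp39a1 had 3.88 RPKM in MHs against 6.50 in SHs. By RPM, the rank of Cyp7a1 among all genes went from 3576 in MHs to 7785 in SHs, and that of Cyp39a1 from 6170 to 4535.

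**Figure D3:**
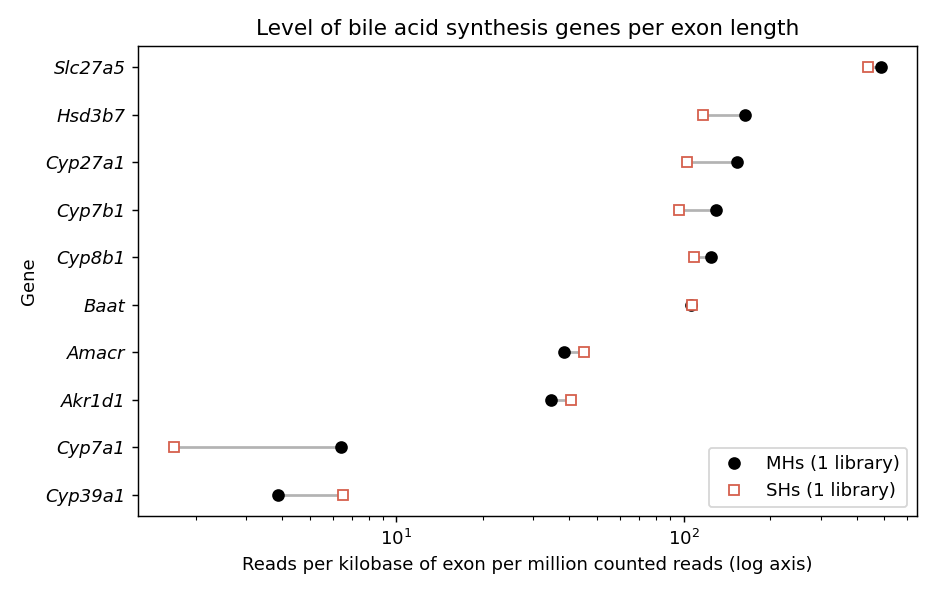
Level of each bile acid enzyme in RPKM (x axis, log scale) in the library of MHs (filled circles) and the library of SHs (open squares), with genes in the order of their level in MHs. Cyp7a1 shows the longest line, from 6.39 to 1.67, and Cyp39a1 goes the other way, from 3.88 to 6.50.

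Summed over the 10 enzymes, the share of counted reads was 0.294% in MHs (95% interval 0.292 to 0.297) and 0.250% in SHs (0.249 to 0.252), 1.18-fold lower in SHs. Slc27a5 alone took 40.4% of the enzymes' reads in MHs against 42.6% in SHs. Cyp7a1 took 0.907% of them in MHs against 0.280% in SHs, so the sum carries little of the rate-limiting enzyme. The conjugation enzymes together took 0.139% of all counted reads in MHs against 0.127% in SHs. For the alternative pathway, the share was 0.0625% in MHs against 0.0452% in SHs.

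Other genes of the pathway were listed by their function. Of these 28 genes, 27 had at least 10 reads, and Ch25h, which makes an oxysterol, had 1 read in MHs against 0 in SHs. The interval lay under 0 for 8 of the 27, above 0 for 6, and included 0 for 13, with a median log2 ratio of -0.02. The shares over all genes were 15.5% under 0 and 16.8% above at 10 reads or more, and 35.8% and 42.9% at 5000 reads or more. Only Fdxr was at least 1.5-fold different in either direction, at 11.7 RPM in MHs against 17.8 in SHs, 1.53-fold higher in SHs with a log2 interval of 0.38 to 0.85.

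All 8 further genes of side chain shortening and conjugation had ratios under 0, between -0.30 and -0.01, but the 4 other scalings left 5 to 7 of them under 0. The median of all genes with at least 10 reads was 0.02. The interval lay under 0 for 4 of the genes, and for 3 under each of the other scalings. Of all genes, 15.5% had an interval under 0 at 10 reads or more, and 35.8% at 5000 reads or more. Hsd17b4, the bifunctional enzyme of peroxisomal side chain oxidation, had 304.0 RPM in MHs against 299.7 in SHs, and its log2 interval of -0.07 to 0.03 included 0. Acnat1 and Acnat2, close relatives of Baat, share 24.0% and 30.0% of their 50-base stretches with each other, which makes their single values uncertain. The same holds for Scp2, a peroxisomal thiolase of side chain shortening, with 29.7% shared, and its interval, which ended just under 0, is one of the 4 under 0. These genes were named after their values were seen.

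Akr1c6, a ring reductase, had 591.1 RPM in MHs against 472.1 in SHs, giving a log2 ratio of -0.32 (-0.36 to -0.29). Cyp2c70, which makes the muricholic acids of the mouse and was named after its values were seen, had 656.3 RPM in MHs against 465.5 in SHs, giving a log2 ratio of -0.50 (-0.53 to -0.46). The electron donors, named in full after their values were seen, did not share a direction. Por, the reductase that serves microsomal P450 enzymes such as Cyp7a1, Cyp8b1 and Cyp7b1, had a log2 ratio of -0.38 (-0.45 to -0.32), from 176.6 RPM in MHs to 135.4 in SHs. The donors to mitochondrial P450 enzymes such as Cyp27a1 were higher in SHs, with log2 ratios of 0.17 for Fdx1 (0.05 to 0.30) and 0.61 for Fdxr. Cyp27a1 itself was lower, so the enzyme and its donors had opposite signs.

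Regulators of the pathway had ratios between -0.20 and 0.32. Among the 13 regulators, the interval included 0 for 8 and lay under 0 for 1 and above 0 for 4. Of all genes with at least 10 reads, 15.5% lay under 0 and 16.8% above, and of those with at least 5000 reads, 35.8% and 42.9%. The bile acid receptor Nr1h4 had 83.8 RPM in MHs against 84.3 in SHs, with a log2 interval of -0.08 to 0.10. Its target Nr0b2, a repressor of Cyp7a1 and Cyp8b1, had 79.9 RPM in MHs against 78.9 in SHs, with an interval of -0.11 to 0.07. Nr5a2, an activator of both enzymes, was higher in SHs, at 46.9 RPM in MHs against 58.6 in SHs, giving a log2 ratio of 0.32 (0.20 to 0.44). Hnf4a, another activator, had 633.3 RPM in MHs against 649.0 in SHs, giving a log2 ratio of 0.04 and an interval that began just above 0 and reached 0.07.

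**Figure D4:**
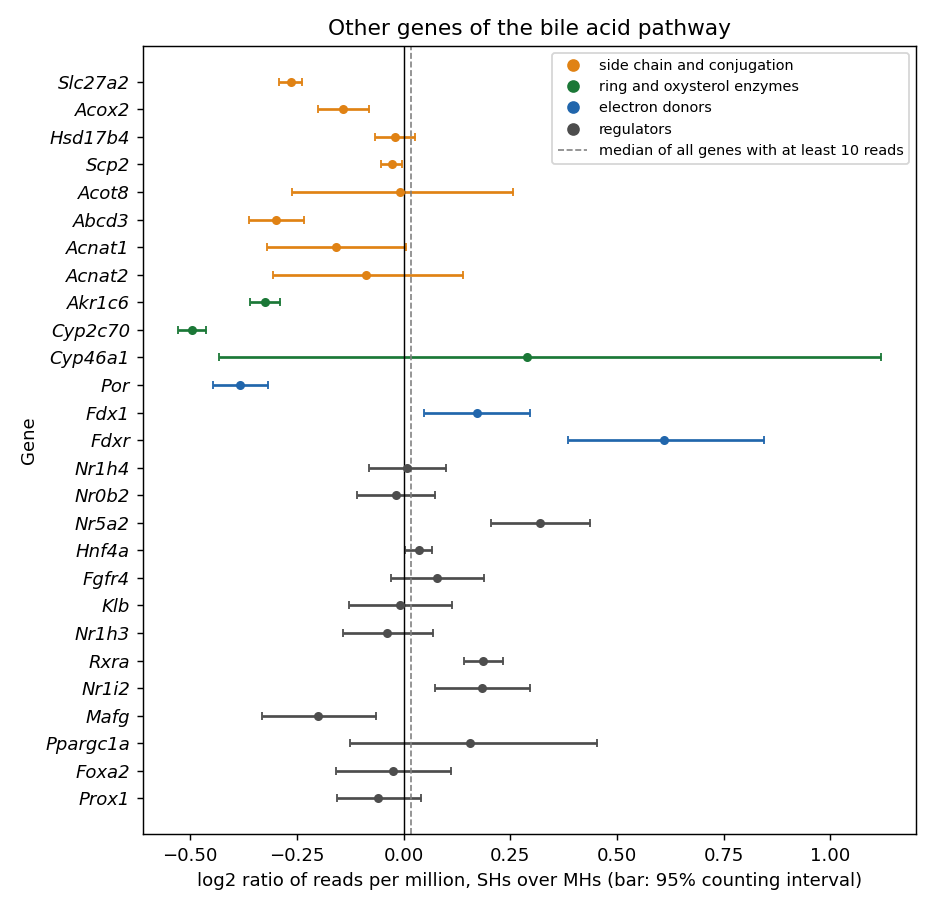
log2 ratio of RPM in SHs over MHs (x axis) for the 27 other pathway genes with at least 10 reads (y axis), colored by list, with bars for the 95% counting interval and a dashed line at the median of all genes, 0.02. The ratios lie between -0.50 for Cyp2c70 and 0.61 for Fdxr, and Cyp46a1, with 20 reads in MHs against 62 in SHs, has the widest interval.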

How the data were processed

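SHs and MHs were each sequenced as 1 RNA-seq library. Of each library the authors deposited whole read counts per gene symbol, without normalization. The methods describe trimming, alignment to mm10 in CLC Genomics Workbench, with reads of several hits allowed, and RPKM values, whereas the program, annotation and strand setting behind the deposited counts are not given in the sources used here.

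From these counts, RPM values and the log2 ratio between libraries (0.5 reads added) were computed (Python 3.11.15, scipy 1.17.1, pandas 2.3.3, numpy 2.4.6). Intervals are Clopper-Pearson intervals of the share of a gene's reads in SHs, or conditional exact intervals of an odds ratio for pairs of enzymes. No p-value was computed. The read minimum was 10, and the fold threshold was 1.5. Positions and merged exon lengths came from GENCODE M21 (mm10). Shared sequence was searched in its transcripts in stretches of 50 bases. Symbols missing from the counts were matched through RefSeq synonyms.

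Named genes were the 10 enzymes, pathway genes at least 1.5-fold different, and Nr1h4, Nr0b2, Nr5a2, Hnf4a, Akr1c6 and Hsd17b4. Other pathway genes (Acnat1, Acnat2, Ch25h, Cyp2c70, Cyp46a1, Fdx1, Por and Scp2) were named after their values were seen. The enzymes and lists were chosen with earlier results of these data known. A planned comparison of protein sequences was not made here. Alternatives were other scalings (edgeR 4.0.16, DESeq2 1.42.0, R 4.3.3), added reads, read minimums and fold thresholds. The calculation was tested on simulated counts that held counting error only. Variation between mice or preparations was not simulated.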

Additional observations from a re-analysis of the deposited data

How the results depend on the processing

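No paired analysis was possible because each cell type was sequenced once. Under 4 other scalings, each of the 10 enzymes kept its direction and its interval stayed on the same side of 0, or included 0 for Baat. With 2 added reads, each ratio also kept its direction. The intervals are computed without added reads and could not change in that setting. The scalings shifted all log2 ratios by between 0.01 and 0.03. Slc27a5 moved past its interval, to -0.13, when totals excluded the 10 most abundant genes. The share of reads on the enzymes was then 0.373% in MHs and 0.324% in SHs. With totals over protein-coding genes it was 0.405% and 0.349%, and without Slc27a5, an alternative chosen after seeing the data, 0.175% and 0.144%. It was lower in SHs each time. At a 2-fold threshold, 693 of the 15521 genes with at least 10 reads were lower and 310 higher. Of the enzymes, 1 was lower, Cyp7a1, and 0 were higher, since Cyp39a1 was 1.67-fold higher. Counts of genes at least 1.5-fold different depended on the read minimum. With at least 100 reads, 335 genes were lower and 272 higher, and with at least 200 reads, 202 and 179 of 9608 genes. With at least 5000 reads, chosen after seeing the data, intervals lay under 0 for 35.8% of genes and above 0 for 42.9%. Fewer genes are tested under each minimum, and intervals are narrower at greater depth. Depth limits Cyp46a1 and Ch25h most. With 1 library of each cell type, variation between mice or preparations could not be measured.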
